A study of Mus musculus with 26 samples.

Results

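The genes of the mouse major histocompatibility complex (MHC), called H2, were followed in 3 pluripotent cell states by their mRNA levels and by the promoter contacts of their restriction fragments. Members were chosen by name. They are the genes whose symbols start with H2-, the antigen-processing genes Tap1, Tap2, Tapbp, Psmb8 and Psmb9, the neighbours Gabbr1, Zfp57, Znrd1, Trim15, Trim31 and Trim40, and B2m, which lies on chromosome 2. Of these, 23 genes had values among the 15646 genes of the RNA-seq table, and the same 23 genes each named 1 baited HindIII fragment among the 19022 baited fragments of the promoter Capture Hi-C (PCHi-C) lists. The other 22 baited fragments lie at chr17:33913520-37049344 (GRCm38), a stretch of 3.14 Mb that holds 113 baited fragments. GENCODE vM21 annotates 46 protein-coding genes that the rule covers, and 24 of them, among them H2-K1, Tap2, Psmb9 and the H2-Q and H2-T genes, are not analysed here.

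Wild-type (WT) ESCs were E14Tg2a cells (129P2/OlaHsd), grown on gelatin in medium with serum and LIF. Nanog-/- ESCs were the RCNβH-B(t) line, derived from E14Tg2a and expanded under hygromycin, which selects for cells without Nanog, in the same medium. EpiSCs were 129S2 cells derived from embryos and grown on fibronectin in N2B27 with Activin A and bFGF. The strain field of the labels instead reads C57BL/6. WT and Nanog-/- ESCs are each 1 line, and for EpiSCs the line, the substrain and the medium differ from ESCs together with the state, so these cannot be told apart. H2 genes differ in sequence between strains, and all reads were mapped to the C57BL/6 reference. RNA-seq was done on 3, 4 and 3 samples, and the table gives their median per state as reads per kilobase of transcript, scaled to library size (RPKM). Where 3 values follow each other without names, they are in the order WT ESCs, EpiSCs and Nanog-/- ESCs. PCHi-C had 5, 2 and 5 sequencing lanes, which were combined over 2 biological replicates into 1 list per state. Neither table holds replicate values, so no difference between states can be tested, and every comparison is a description of 3 medians or 3 lists. The column of Nanog-/- ESCs in the RNA-seq table has a cell line code as its name, and was assigned to that state because it is the remaining one of the 3 labelled states.

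MHC class I molecules show peptides from inside the cell on its surface, as a heavy chain paired with the light chain beta-2-microglobulin (B2m). The peptides are cut by the proteasome, which can carry the inducible subunits Psmb8 and Psmb9, are pumped into the endoplasmic reticulum by Tap1 and Tap2, and are loaded with the help of tapasin (Tapbp). Class II molecules (H2-A and H2-E chains) show peptides from outside the cell and belong to professional antigen-presenting cells, where H2-DM loads the peptide and H2-O restrains H2-DM. The same stretch holds Zfp57, a zinc finger protein that keeps imprinted loci methylated, Gabbr1, a subunit of the GABA B receptor, and Znrd1, a subunit of RNA polymerase I.

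Class I and class II promoters are known for short elements that bind interferon response factors, NF-kappa B, RFX (X box), CREB (X2 box) and NF-Y (Y box). RefSeq promoters (GRCm38.p6) were found for 21 of the 23 members, and H2-Ab1 and H2-Ke2 had none. The 250 bases before each start were searched on both strands for GAANNGAAA (interferon response), GGGNNTTCC (kappa B), AGNAAC (X box core), TGACG (X2 box) and CCAAT (Y box), each of which may overlap another. Bases before the starts of B2m, H2-Aa and H2-M5, as examples of the light chain, of a class II chain and of a class I gene that was lower in EpiSCs, are printed 5′ to 3′ on the strand of the gene up to the first annotated exon base. For H2-D1 only the 30 bases between its kappa B and interferon response letters are given. Capitals mark all letters that match 1 of the 5 patterns.
B2m (plus strand, chr2:122147437-122147685): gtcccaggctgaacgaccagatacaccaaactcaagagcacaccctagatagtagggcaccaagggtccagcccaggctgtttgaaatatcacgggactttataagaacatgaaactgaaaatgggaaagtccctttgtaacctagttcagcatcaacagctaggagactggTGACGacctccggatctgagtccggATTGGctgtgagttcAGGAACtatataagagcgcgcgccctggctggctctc
H2-D1 (plus strand, chr17:35262923-35262952): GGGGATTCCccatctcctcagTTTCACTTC
H2-Aa (minus strand, chr17:34287824-34288073): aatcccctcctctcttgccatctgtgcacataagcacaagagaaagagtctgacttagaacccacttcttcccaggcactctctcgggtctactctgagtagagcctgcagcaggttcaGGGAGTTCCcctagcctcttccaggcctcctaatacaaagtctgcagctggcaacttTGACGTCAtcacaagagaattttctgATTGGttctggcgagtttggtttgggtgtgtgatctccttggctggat
H2-M5 (minus strand, chr17:36989538-36989783): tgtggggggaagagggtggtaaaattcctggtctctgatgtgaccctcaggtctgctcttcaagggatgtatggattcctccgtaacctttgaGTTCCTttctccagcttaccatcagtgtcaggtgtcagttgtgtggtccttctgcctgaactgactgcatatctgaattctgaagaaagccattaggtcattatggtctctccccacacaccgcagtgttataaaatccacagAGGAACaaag

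The Y box letters were in the windows of 16 of 21 members (76.2%), against 37.5% of 27025 genes. The kappa B letters were in 5 of 21 members (23.8%, against 5.61% of all genes), namely H2-D1, H2-Aa, H2-Oa, Trim15 and Trim31. The interferon response letters, in the spacing searched, were in 3 of 21 members (14.3%, against 7.3%), namely H2-D1, Trim31 and Trim40. Letters with a wider spacing were not searched. The B2m window holds such letters for interferon response (gaaactgaaa) and for kappa B (ggaaagtccc, on the other strand), printed in lower case. The counts therefore do not show that B2m or another member lacks an interferon response element or a kappa B site. The X2 box letters were in 5 of 21 members (23.8%, against 19.8%) and the X box core in 8 of 21 (38.1%, against 46%). Near matches of the X box core were not counted, such as ggcaac just upstream of TGACG in H2-Aa. That count therefore does not show that H2-Aa or another member lacks an X box. In the printed windows, B2m and H2-Aa each carried an X2 box upstream of a Y box, at bases -78 and -53 of B2m and -74 and -48 of H2-Aa, counted from the start. H2-D1, of which only a stretch is printed, also had X2 box letters at -101, upstream of Y box letters at -76 and -53. The H2-M5 window had neither. These are matches of letters and not measured binding sites.

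The libraries were first checked by the deleted gene and by marker genes. Nanog stood at 418, 361 and 22.3 RPKM. The 5 naive pluripotency markers with values summed to 810, 373 and 239 RPKM, and without Nanog itself the other 4 summed to 392, 12.2 and 217. All 5 were past 2-fold lower in EpiSCs than in WT ESCs after the subtraction described below, and 4 of the 5 without it. The call of Nanog comes from the subtraction, since its log2 ratio was -1.07 with it and -0.21 without it. In Nanog-/- ESCs 4 of the 5 were higher than in EpiSCs. Esrrb stood at 210 RPKM in WT ESCs and 0.775 in EpiSCs. Primed markers (5 of 5 with values) summed to 80.2, 833 and 73.9 RPKM, of which T (3.37, 444 and 1.14) and Fgf5 (4.74, 219 and 1.11) made up most in EpiSCs. These were 2 of the 5 past 2-fold higher than in WT ESCs, and Otx2, Pou3f1 and Lef1 were inside 2-fold, with log2 ratios of 0.10, 0.91 and -0.71. Immune cell markers (5 of 7 with values) were low, with sums of 10.8, 17.7 and 9.99 RPKM and with Ptprc at 0.167, 0.963 and 0.411. Fibroblast markers (4 of 6 with values) summed to 43.9, 382 and 52.0 RPKM, and 3 of the 4, Col1a1, Col1a2 and Col3a1, were past 2-fold higher in EpiSCs than in WT ESCs, as the class I genes below were. Their part in the class I result was not tested. In bulk samples, fewer cells of a type and less RNA per cell cannot be told apart.

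Levels were compared as log2(RPKM + 1), and a gene was called past 2-fold after subtracting the median log2 ratio of all genes at 1 RPKM or more in either state. That median was 0.86 for EpiSCs against WT ESCs, 0.07 for Nanog-/- against WT ESCs and -0.80 for Nanog-/- ESCs against EpiSCs, so differences between EpiSCs and WT ESCs are relative to a general shift of 1.82-fold. Znrd1, Gabbr1, H2-Ke2 and H2-DMb1 had log2 ratios below 0 with the subtraction (-0.44, -0.62, -0.33 and -0.60) and above 0 without it (0.42, 0.25, 0.53 and 0.26). RPKM is per length, so levels can also be compared between genes.

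Class I antigen presentation genes were higher in EpiSCs than in WT ESCs. B2m, H2-D1, Tap1, Tapbp and Psmb8 each stood past 2-fold above the general shift, and so did the class II chain H2-Ab1. H2-M5, a nonclassical class I gene, was lower, and so were Zfp57 and Trim40. Of the 23 members, 6 were past 2-fold higher, against a background of 9.75% of the 15646 genes, and 4 were past 2-fold lower, against 14.7%. Of the 15 members at 1 RPKM or more in a state, 6 were higher and 3 lower, against 13.8% and 16.1% of the 11066 genes at that level. Without the subtraction, 7 of 23 were higher (30.1% of all genes) and 2 lower (5.78%). The median log2 ratio of the 23 members was -0.54, and that of all genes -0.40 (0.32 and 0.46 without the subtraction). The 8 members under 1 RPKM pull this median down, since a gene near 0 in both states is placed near -0.86 by the subtraction alone, as was H2-M11, listed at 0 in all 3 states. The fourth member called lower, H2-DMb2, stood at 0.456 RPKM in WT ESCs and 0.225 in EpiSCs, and its call comes from the subtraction, since its log2 ratio without it was -0.25.

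**Figure D1:**
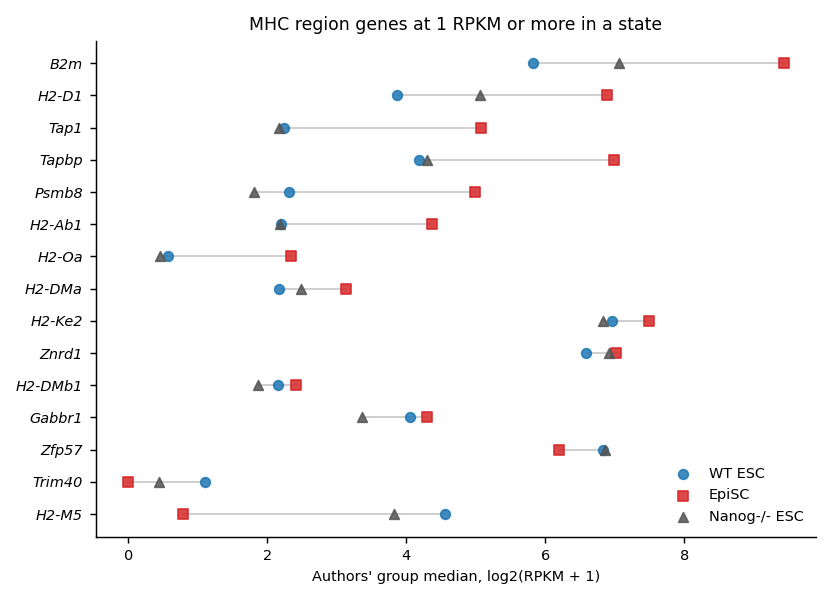
Authors' median levels of the 15 members at 1 RPKM or more in a state, as log2(RPKM + 1) on the x axis, with 1 symbol per state and a grey line from the lowest to the highest. B2m, H2-D1, Tap1, Tapbp, Psmb8 and H2-Ab1 have their EpiSC symbol far to the right of both ESC symbols, and H2-M5 has it far to the left.

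B2m, the light chain of class I molecules, stood at 55.7, 687 and 132 RPKM and had the highest level of any member in EpiSCs and Nanog-/- ESCs. Its rank among all genes went from the 88.2 percentile in WT ESCs to 99.3 in EpiSCs and 95.2 in Nanog-/- ESCs. H2-D1, a classical class I heavy chain, had 13.6, 118 and 32.3 RPKM. Both were lowest in WT ESCs and highest in EpiSCs. Reads of H2-D1 may be shared with class I genes of near-identical sequence, and so its level is uncertain. The log2 ratios of EpiSCs to WT ESCs after the subtraction were 2.74 for B2m and 2.16 for H2-D1.

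The 3 genes of peptide supply were past 2-fold higher in EpiSCs than in either ESC state, and inside 2-fold between the ESC states. Tap1, a subunit of the peptide transporter, stood at 3.74, 32.7 and 3.49 RPKM. Tapbp, which holds class I molecules at the transporter, had 17.2, 126 and 18.7 RPKM. Psmb8, the inducible proteasome subunit, had 3.96, 30.8 and 2.50 RPKM. Their log2 ratios of EpiSCs to WT ESCs were 1.97 (Tap1), 1.94 (Tapbp) and 1.82 (Psmb8). The library kit does not mark strand, and Tap1 overlaps Psmb9, Psmb8 overlaps Gm20496, Tapbp overlaps Zbtb22 and Gm19412, B2m overlaps Patl2, H2-DMa overlaps Brd2 and 3 other annotated genes, H2-Oa overlaps BC051537, and H2-Ke2 overlaps CR974462.1, so reads of these pairs cannot be separated.

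Among 8 class II genes and loading factors, 1 was past 2-fold higher in EpiSCs, H2-Ab1, with 3.57, 19.6 and 3.52 RPKM, and 1 was called lower, H2-DMb2, as above. H2-Oa, which restrains H2-DM, had 0.482, 4.08 and 0.367 RPKM, a log2 ratio of 0.92 that lay just inside 2-fold. H2-DMa stood at 3.48, 7.78 and 4.61 RPKM and H2-DMb1 at 3.44, 4.31 and 2.63, and neither passed 2-fold. H2-Aa, the alpha chain that pairs with the H2-Ab1 product, was at 0.0542, 0.371 and 0.172 RPKM. The beta chain transcript thus stood above that of its alpha chain in all 3 states. Ciita, the activator of class II transcription, was at 0.0259, 0.0303 and 0.0479 RPKM. Cd74, the invariant chain of class II, was at 4.27, 7.52 and 2.55 RPKM.

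H2-M5 went the other way, with 22.4, 0.733 and 13.2 RPKM. Its log2 ratio of EpiSCs to WT ESCs was -4.62, the lowest of all members, and -3.76 without the subtraction. Zfp57 had 112, 72.4 and 115 RPKM. Its log2 ratio of -1.49 became -0.62 without the subtraction and was then inside 2-fold. Trim40 had 1.14, 0 and 0.357 RPKM, where 0 is the listed value. Gabbr1 stood at 15.6, 18.7 and 9.24 RPKM, Znrd1 at 95.2, 128 and 120, and H2-Ke2, which GENCODE names Pfdn6 and which encodes a prefoldin subunit, at 123, 179 and 112, all inside 2-fold. The remaining 8 members (H2-Aa, H2-DMb2, H2-Eb2, H2-Ob, H2-M10.6, H2-M11, Trim15 and Trim31) were between 0 and 0.674 RPKM in all 3 states.

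B2m and H2-D1 were the members past 2-fold higher in the ESCs without Nanog. In Nanog-/- ESCs against WT ESCs, 2 of 23 members were past 2-fold higher, against a background of 1.46%, and 0 were lower, against 1.62%. B2m had a log2 ratio of 1.16 and H2-D1 of 1.12. Among genes at 1 RPKM or more, 2.06% were higher and 2.28% lower, and without the subtraction the member counts were again 2 and 0, against 1.69% and 1.35% of all genes. Both ratios lie close to the 2-fold line. Tap1 and Tapbp differed by -0.15 and 0.04, Psmb8 by -0.58 and H2-M5 by -0.79. Of Nanog-/- ESCs against EpiSCs, 3 members were higher (H2-M5, Zfp57 and Trim40), against 14% of all genes, and 7 lower, against 9.56%. At 1 RPKM or more the background was 15.9% and 13.5%, and without the subtraction the members counted 1 and 7, against 5.68% and 27.8%. The 3 comparisons share their medians, and so they are not independent of each other.

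**Figure D2:**
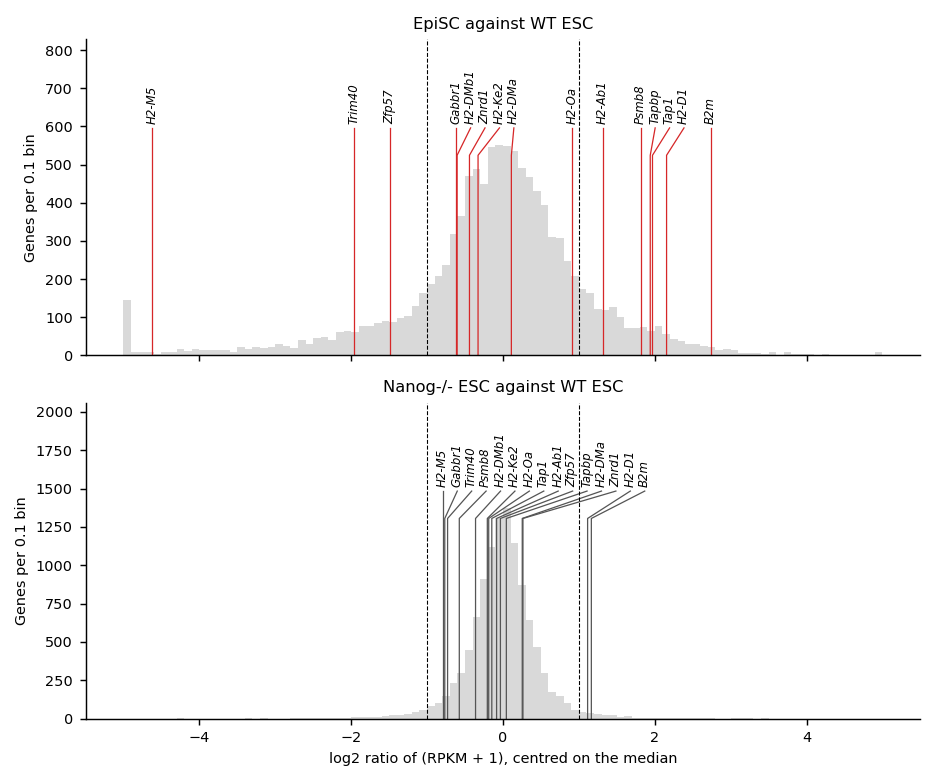
Log2 ratio of (RPKM + 1) after the subtraction on the x axis, for the 11066 genes at 1 RPKM or more in a state (grey bars, genes per bin, with values past 5 placed at the ends) and for the 15 members at that level (lines). Dashed lines mark 2-fold. B2m lies past the right-hand line in both panels, at 2.74 and 1.16, and H2-M5 lies at -4.62 in the upper panel and inside the lines in the lower one.

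Other genes of the pathway were taken from a list of regulators, interferon and NF-kappa B signalling, loading factors and Zfp57 partners, of which 36 of 43 had values. In EpiSCs against WT ESCs, 9 were past 2-fold higher, against 9.75% of all genes, and 2 lower, against 14.7%, and their median log2 ratio was 0.34. All of the 36 but Ciita and Gabbr2 reached 1 RPKM in a state, and among all genes at that level 13.8% were higher and 16.1% lower. Without the subtraction, 22 were higher, against 30.1%, and 0 lower, against 5.78%. Of 12 genes of interferon signalling 5 were higher and 7 were inside 2-fold. The higher ones included the receptor chains Ifngr1 (2.96 to 23.5 RPKM) and Ifnar2 (4.41 to 18.9), the kinase Jak2 (5.08 to 24.4) and the transcription factor Irf2 (0.317 to 9.04). Among those inside 2-fold, Irf1 had a log2 ratio of 0.64 and the kinase Tyk2 of -0.41. Nfkb1 went from 11.5 to 53.6 RPKM and Tapbpl, a relative of tapasin, from 3.52 to 15.8, also past 2-fold. The 8 class I and II regulators with values, which include the X box factors Rfx5, Rfxap and Rfxank and the Y box subunits Nfya, Nfyb and Nfyc, had 0 genes past 2-fold.

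The constitutive loading factors differed less than those encoded in the MHC. Calr, Canx and Pdia3, general chaperones of the endoplasmic reticulum, had log2 ratios of 0.21, 0.15 and 0.65, and Psmb10, the inducible proteasome subunit encoded outside the region, had 0.39. Among the partner and targets of Zfp57, Trim28, its corepressor, had a log2 ratio of -1.10. Its call comes from the subtraction, since it stood at 970 RPKM in WT ESCs and 825 in EpiSCs (-0.23 without it). The imprinted genes Peg3, Plagl1 and Nnat had 1.65, 2.83 and -1.43, and without the subtraction 2.51, 3.69 and -0.57. In Nanog-/- ESCs against WT ESCs, 0 of 36 genes were higher, against 1.46% of all genes, and 2 lower, against 1.62%, Peg3 (18.9 to 8.33 RPKM) and Nnat (5.25 to 0.726). At 1 RPKM or more the background was 2.06% and 2.28%. Of Nanog-/- ESCs against EpiSCs, 2 were higher, against 14%, and 8 lower, against 9.56% (15.9% and 13.5% at 1 RPKM or more). Without the subtraction these were 0 and 25, against 5.68% and 27.8%. Gabbr2, the partner of Gabbr1 in the receptor, was at 0.0533, 0.558 and 0.0599 RPKM.

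PCHi-C ligates DNA ends that were near one another in fixed nuclei and enriches the products that carry a baited promoter. Each listed pair of fragments has its reads and a CHiCAGO score, which grows with the excess of reads over those modelled for its distance, and only pairs at a score of 5 or more are listed. A pair that is not in a list fell below that score there, and its reads are not known. Members took part in 268 of 100492 pairs in WT ESCs (0.267%, Wilson 95% interval 0.237 to 0.301%), in 190 of 87369 in EpiSCs (0.217%, 0.189 to 0.251%), and in 206 of 74931 in the list of Nanog-/- ESCs (0.275%, 0.240 to 0.315%). Intervals cover counting error only. The lists sum to 2177284, 1651286 and 1438555 reads, and a member pair had a median of 14, 14 and 10 reads, against 13, 11 and 11 for all pairs. A member fragment had a median of 8, 7 and 8 contacts, against 3, 3 and 2 for all baited fragments.

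Member contacts were shorter in the median than all pairs, though by little in Nanog-/- ESCs. Their median distance between fragment midpoints was 112, 85.3 and 69.4 kb, against 139, 141 and 74.1 kb for all pairs. Above 800 kb there were 0, 1 and 0 member contacts (0.526% in EpiSCs), against 1.29%, 1.78% and 0.368% of all pairs. At these shares few are to be expected among the member contacts, so the counts do not set the members apart. No member contact joined different chromosomes. The exception in EpiSCs joined the Tap1 fragment to an intergenic fragment 1584 kb away, at 3 reads (score 5.01). Both ends were baited in 34.0%, 33.2% and 39.3% of member contacts, against 23.1%, 18.4% and 22.0% of all pairs, and 23, 17 and 25 joined 2 member fragments.

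**Figure D3:**
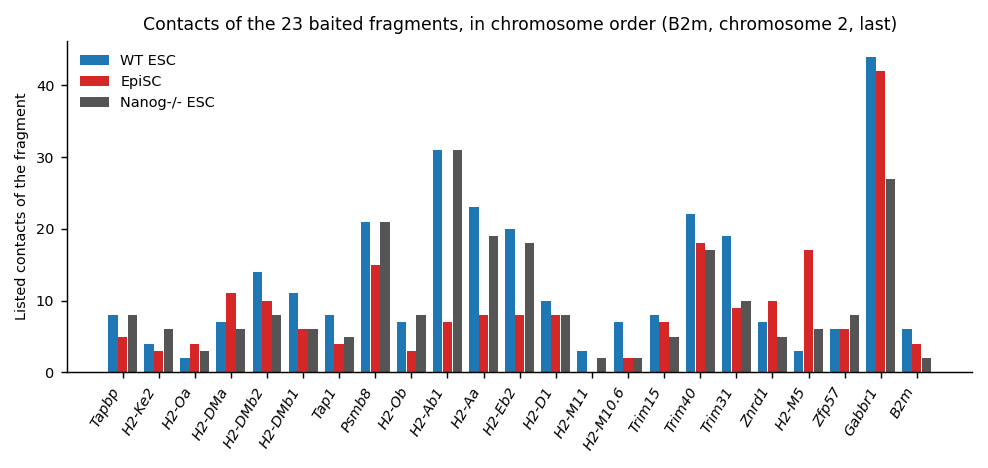
Number of listed contacts (y axis) of each of the 23 member fragments in chromosome order, with 1 bar per state. The EpiSC bars of H2-Ab1, H2-Aa and H2-Eb2 are short, at 7, 8 and 8, and that of H2-M5 is tall, at 17.

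The class II fragments from H2-Ob to H2-Eb2 had fewer listed contacts in EpiSCs than in either ESC list. H2-Ab1 (chr17:34260713-34268263, exons of H2-Ab1) had 31, 7 and 31 contacts. H2-Aa (chr17:34284381-34292640) had 23, 8 and 19, and H2-Eb2 (chr17:34325454-34326646) had 20, 8 and 18. Together with H2-Ob (7, 3 and 8), the 4 fragments had 75, 26 and 70 different contacts. At a score of 7 or more these were 36, 9 and 35, and at 10 reads or more 57, 15 and 46.

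Of the 75 contacts in WT ESCs, 12 were listed in EpiSCs (16%, 9.40 to 25.9%), where the share over all pairs was 39.6%. This block of 4 was chosen after its values were seen, and over the whole class II cluster from H2-Oa to H2-Eb2 the share was 34 of 130 (26.2%, 19.4 to 34.3%), while for its other 6 fragments (H2-Oa to Psmb8) it was 22 of 57 (38.6%, 27.1 to 51.6%). In Nanog-/- ESCs 48 of the 75 were listed (64%, 52.7 to 73.9%), against 41.8% of all pairs. Of 103 contacts of the 7 fragments from Trim15 to Gabbr1, 61 were listed in EpiSCs (59.2%, 49.6 to 68.2%) and 54 in Nanog-/- ESCs (52.4%, 42.9 to 61.8%). The class II contacts had a median of 15 reads in WT ESCs and the Trim15 to Gabbr1 contacts 13, and among contacts of 10 reads or more the shares in EpiSCs were 15.8% and 66.7%, against 40.2% of all pairs. In Nanog-/- ESCs they were then 56.1% and 39.1%, against 39.8%, so the Trim15 to Gabbr1 share was level with that of all pairs. Adjacent fragments share partners, so these contacts are not independent of each other. Over all members, 109 of 268 were listed in EpiSCs (40.7%), near the share of all pairs, and 143 in Nanog-/- ESCs (53.4%).

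By fragment, 4 of the 13 member fragments with 10 or more contacts in either list had at least 2-fold fewer in EpiSCs than in WT ESCs (H2-Ab1, H2-Aa, H2-Eb2 and Trim31), against a background of 26.1% of 4893 fragments, which is close to the share of members. H2-M5 had 2-fold more, against 11.8%. At 4-fold, 1 of 13 had fewer (H2-Ab1), against 6.46%, and 1 had more (H2-M5), against 3.31%. Against WT ESCs, 0 of 10 member fragments in Nanog-/- ESCs had 2-fold fewer, where 23.5% of 4549 fragments did, or 2-fold more, where 4.15% did. At 4-fold these were also 0, where the background was 5.56% fewer and 0.528% more. Of Nanog-/- ESCs against EpiSCs, 2 of 11 had 2-fold fewer (Znrd1 and H2-M5), against 26.1%, and 3 had more (H2-Ab1, H2-Aa and H2-Eb2), against 18.7%. At 4-fold, 0 had fewer (11.2%) and H2-Ab1 had more (4.97%).

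The contacts not listed in EpiSCs include those between the baited class II fragments from H2-Ob to H2-Eb2. The H2-Ob, H2-Ab1, H2-Aa and H2-Eb2 fragments were joined to each other in 6, 0 and 6 pairs. Some other contacts within class II were listed in EpiSCs. A fragment of H2-Eb1 exons (chr17:34305911-34307428) was joined there to H2-Ab1, H2-Aa and H2-Eb2 by 19, 42 and 30 reads. In EpiSCs alone, H2-Ob was joined to another H2-Eb1 exon fragment (9 reads) and H2-Aa to H2-DMa (6 reads). Other contacts of H2-Ab1 and H2-Aa with H2-Eb1 exon fragments in WT ESCs were not listed in EpiSCs. H2-Ab1 and H2-Aa, the genes of the 2 chains of 1 molecule, were 24.0 kb apart and joined by 53 reads in WT ESCs (score 9.28) and 25 in Nanog-/- ESCs (8.22). A fragment with Btnl2 exons (chr17:34366239-34376453), a butyrophilin-like gene next to class II, was joined to H2-Ab1 by 20 reads in WT ESCs, its contact of highest score there (12.99), and by 11 in Nanog-/- ESCs (10.08). The baited fragments of Btnl3 and BC051142, further along, were joined to 6 members each in WT ESCs. In EpiSCs the Btnl3 fragment and that Btnl2 fragment had 0 member contacts and the BC051142 fragment had 2, and a baited Btnl2 fragment (chr17:34354361-34356460) was joined to H2-Eb2 by 19 reads.

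Contacts listed in all 3 states included a fragment in an intron of H2-Ob (chr17:34250707-34252589). It was joined to H2-Ab1 by 68, 52 and 53 reads, with scores of 9.92, 8.97 and 16.91. H2-Aa was joined to it by 32, 28 and 19 reads and H2-Eb2 by 25, 22 and 13. The Psmb8 fragment, which also carries Tap1 and Tap2 exons, was joined to it by 22, 17 and 14 reads. In EpiSCs it was the contact of highest score of H2-Ab1, H2-Aa (9.27) and H2-Eb2 (12.86). The contact of highest score of H2-Aa was the Btnl3 fragment in WT ESCs (17 reads, 12.05) and a fragment of H2-Eb1 exons in Nanog-/- ESCs (38 reads, 11.73), and that of H2-Eb2 was the H2-Ob intron in both.

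**Figure D4:**
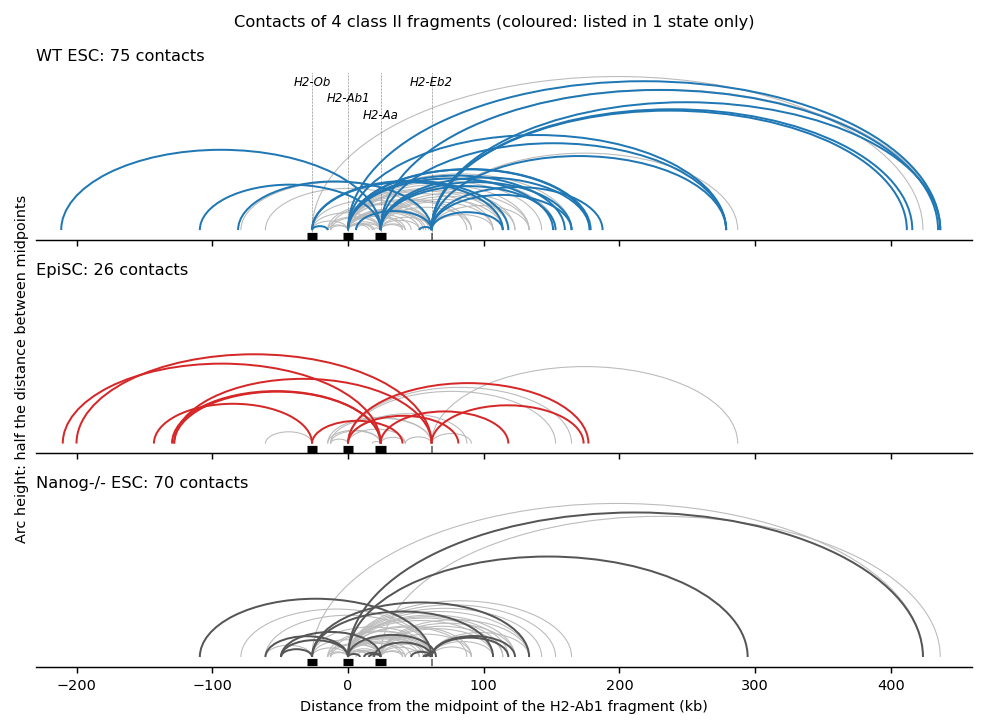
Contacts of the H2-Ob, H2-Ab1, H2-Aa and H2-Eb2 fragments (black blocks) as arcs between fragment midpoints, with distance from the H2-Ab1 midpoint in kb on the x axis and 1 panel per state. Coloured arcs are in that list alone, and grey arcs are also in another. EpiSCs have 26 arcs, against 75 and 70, with fewer arcs to the right of H2-Eb2 than in either ESC panel.

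Set side by side, H2-Ab1 had its highest level (19.6 RPKM) in EpiSCs, where it had the fewest contacts (7), and 3.57 and 3.52 RPKM with 31 contacts in each ESC list. H2-Ab1 had no RefSeq promoter. In GENCODE the gene lies on the plus strand from chr17:34257689, so its first annotated base is outside the fragment named for it. Whether another start of the gene lies in that fragment was not checked. H2-Aa and H2-Eb2, with the same pattern of contacts, were under 1 RPKM in all 3 states.

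Further upstream, in the block of H2-DM and peptide supply genes, contacts with the fragment of Brd2 (chr17:34117600-34125398, exons of Brd2 and H2-DMa) were listed in EpiSCs and Nanog-/- ESCs. Brd2 encodes a bromodomain protein that binds acetylated histones. Its fragment had 10, 30 and 23 contacts, of which 0, 6 and 3 were with members. In EpiSCs it was joined to H2-DMa by 112 reads over 13.3 kb, with a score of 39.77, the highest of any member contact of EpiSCs. It was also joined to H2-Oa (30 reads), H2-DMb2 (29), H2-DMb1 (20), Tap1 (11) and H2-Ob (10). In Nanog-/- ESCs H2-Oa (31 reads), Psmb8 (14) and H2-Ke2 (9) were joined to it. H2-DMa had 7, 11 and 6 contacts in all, and was joined to H2-DMb2 by 85, 61 and 38 reads. Neither RefSeq start of H2-DMa lies in the fragment named for it.

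The Tap1 and Psmb8 fragments were joined in all 3 lists. Psmb8 (chr17:34195308-34211953) had 21, 15 and 21 contacts, and its contact of highest score in all 3 was with a fragment of Tap1 exons 11.6 kb away, with 130, 123 and 97 reads. Tap1 (chr17:34187164-34190209) had 8, 4 and 5 contacts and its contact of highest score in all 3 was the Psmb8 fragment, with 59, 57 and 36 reads. Tapbp had 8, 5 and 8 contacts. H2-DMb2 had 14, 10 and 8 contacts, with H2-DMa as its contact of highest score in all 3, and H2-DMb1 had 11, 6 and 6.

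H2-D1 (chr17:35258280-35268762) had 10, 8 and 8 contacts, and 5 of them were in all 3 lists. Its contact of highest score in each was the fragment named CR974466.1, 8.65 kb away, with 167, 120 and 97 reads and scores of 38.62, 29.02 and 33.79. In EpiSCs a fragment 30.5 kb away was joined to H2-D1 by 27 reads (score 18.03) and was in neither ESC list. B2m (chr2:122144380-122148224) had 6, 4 and 2 contacts. Its neighbour Spg11 was joined to it by 21, 20 and 9 reads, and was its contact of highest score in EpiSCs (11.09). In WT ESCs the contact of highest score was Duox2, 152 kb away (9 reads, 7.77), and in Nanog-/- ESCs an intron of Shf, 218 kb away, with 4 reads. The highest levels of H2-D1 and B2m, in EpiSCs, stood beside 8 and 4 listed contacts, against 10 and 6 in WT ESCs.

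At the far end of the region, the contacts from Trim15 to Gabbr1 were more alike between WT ESCs and EpiSCs. Gabbr1 (chr17:37044789-37049344) had 44, 42 and 27 contacts, the most of all members in WT ESCs and EpiSCs, of which 21 were in all 3 lists. Its contacts of highest score were an intergenic fragment 118 kb away in WT ESCs (27 reads, score 19.52) and Rnf39 in EpiSCs (19 reads, 20.30) and Nanog-/- ESCs (12 reads, 14.17). Trim40 had 22, 18 and 17 contacts, with those of highest score to an intergenic fragment 310.8 kb away (22 reads, 25.82), to Gabbr1 (20 reads, 17.17) and to the baited Olfr94 fragment (10 reads, 17.92). Trim31 had 19, 9 and 10, with Gabbr1 (12 reads, 12.70) as its highest in Nanog-/- ESCs and the Olfr94 exon fragment next described in WT ESCs and EpiSCs. A fragment with exons of the olfactory receptor gene Olfr94 (chr17:37200281-37201018) was joined to 6, 6 and 5 members. It was joined to Trim31, 300 kb away, by 20, 14 and 7 reads, with scores of 28.98, 24.10 and 9.52. It was joined to Trim40 by 17, 12 and 8 reads and to Gabbr1 by 19, 24 and 9.

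Zfp57 (chr17:36998368-37004394) had 6, 6 and 8 contacts. Gabbr1 was its contact of highest score in WT ESCs (29 reads, 17.27) and EpiSCs (23 reads, 15.69), and in Nanog-/- ESCs it had 9 reads. There the highest was a fragment with Zfp57 and Mog exons (22 reads, 7.75). Znrd1 (chr17:36954012-36972611) had 7, 10 and 5 contacts, with Gabbr1 at 22 reads in WT ESCs and 20 in EpiSCs as its highest and Rnf39 at 20 reads in Nanog-/- ESCs.

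The H2-M5 fragment (chr17:36984475-36998367) had more contacts in EpiSCs, where its gene was lowest. It had 3, 17 and 6 contacts, at 22.4, 0.733 and 13.2 RPKM. At a score of 7 or more these were 1, 6 and 1, and at 10 reads or more 1, 7 and 1, so most of those in EpiSCs rest on under 10 reads. Gabbr1 was joined to it by 24, 15 and 10 reads. In EpiSCs its contact of highest score was an intergenic fragment 52.2 kb away (17 reads, 12.44), and it was also joined to Znrd1 (17 reads), Trim26 (6 reads) and the Olfr94 fragment (6 reads).

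**Figure D5:**
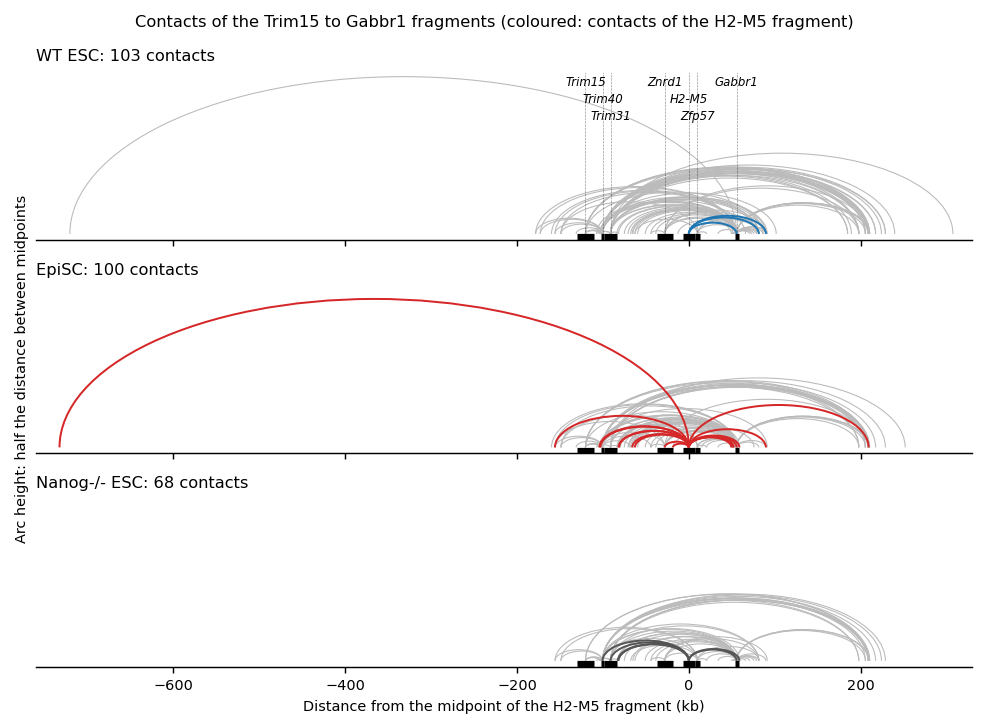
Contacts of the Trim15 to Gabbr1 fragments (black blocks) as arcs between fragment midpoints, with distance from the H2-M5 midpoint in kb on the x axis and 1 panel per state. Coloured arcs are those of the H2-M5 fragment, and number 3, 17 and 6.

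The H2-M5 fragment is itself on the list of super-enhancer (SE) fragments of ESCs, which the study took from SEs defined earlier, with the fragment next to it, and 3 more lie in and behind Gabbr1 (chr17:37070785-37081973). Super-enhancers are stretches of densely bound enhancers. Counted from each member fragment, 16 of 291 contacts were with an SE fragment in WT ESCs (5.50%, 3.41 to 8.74%), 5 of 207 in EpiSCs (2.42%, 1.04 to 5.53%) and 9 of 231 in the Nanog-/- list (3.90%, 2.06 to 7.24%). Over all baited fragments the shares were 0.261%, 0.281% and 0.263%. These were not matched for distance to an SE, and all member contacts with SE fragments came from the Trim15 to Gabbr1 fragments, which lie around these SEs. The intervals of the members overlap between states. The 3 Gabbr1 SE fragments took 14 of these in WT ESCs, from 7 members (Trim15, Trim40, Trim31, Znrd1, H2-M5, Zfp57 and Gabbr1), 3 in EpiSCs from 2 members (H2-M5 and Gabbr1) and 6 in Nanog-/- ESCs from 5 members. The fragment with the last Gabbr1 exons (chr17:37070785-37074972) was joined to Gabbr1 by 52, 46 and 23 reads. In WT ESCs it was joined to Znrd1 and Trim40 by 10 reads each, to Zfp57 by 9, and to Trim31 and H2-M5 by 8 each, and in EpiSCs to none of these. The SE fragments at Pou5f1, which lies in the same stretch of chromosome 17, had no member contact.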

How the data were processed

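RPKM values of genes, normalised by the authors and reduced to 1 median per state, were deposited with their own log2 fold changes and a p-value column, which the authors computed and which were not used here. Rows without values and repeated rows were dropped, which left 15646 of 15741. The submitters' notes name Trim Galore, TopHat and DESeq2. Each deposited PCHi-C list gives the count of reads and the CHiCAGO score of a fragment pair, made by the authors with HiCUP and CHiCAGO and combined over replicates. The notes also name Bowtie 1.1.0, with no role. Pairs listed from both ends were kept once, with the entry of higher score, and all 96056 fragments matched HindIII sites of GRCm38. Only the positions of 899 SE fragments came from the study's supplement. Pseudocount was 1 RPKM. Sequencing depth per sample is unknown.

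Members at 1 RPKM or more in a state were named with their levels, and the 10 fragments with most contacts plus H2-D1, Gabbr1, Zfp57, Znrd1 and B2m with their contact of highest score. The Brd2, Btnl, Olfr94, H2-Ob intron and SE fragments, and the contacts of H2-DMa, Tapbp and Tap1, were chosen after their values were seen. Members and lists were chosen with earlier results of these data known. The counting steps were tested on simulated data. Python 3.11.15, pandas 2.3.3, matplotlib 3.10.9, scipy 1.17.1 and numpy 2.4.6 were used. ChIP-seq samples were not used here. A pathway gene that the naming rule covers is not reported here by name.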

Additional observations from a re-analysis of the deposited data

How the results depend on the processing

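No paired analysis was possible because the RNA-seq table holds only medians of the groups and the contact lists are combined, and leaving out replicates was not possible for the same reason. Super-enhancers by ROSE were not run as an alternative, since the copy of that table is shortened. Among the 23 members, those past 2-fold lower in EpiSCs than in WT ESCs numbered 2 without centring and 11 at 1.5-fold. Those lower in Nanog-/- than in WT ESCs numbered 1 with a pseudocount of 0.1 RPKM and 3 at 1.5-fold. Those higher in Nanog-/- ESCs than in EpiSCs numbered 1 without centring and 9 at 1.5-fold. The 11 and the 9 include genes near 0 that centring alone moves past 1.5-fold. H2-M11, listed at 0 in all 3 states, is in both, with log2 ratios of -0.86 and 0.80. Shares of all genes were not computed at 1.5-fold or at a pseudocount of 0.1 RPKM, so those counts have no background. At a score of 7 or more, member contacts numbered 129, 95 and 93 (WT ESCs, EpiSCs, Nanog-/- ESCs), and contacts between members 13, 10 and 10. At 10 reads or more, EpiSCs had 123 member contacts and Nanog-/- ESCs 111, with 12 between members in the latter. The antigen presentation classes alone had 160, 100 and 136 contacts. The median distance was 64.7, 40.6 and 22.9 kb at 10 reads or more, and at a score of 7 or more 55.6 kb in EpiSCs and 39.6 kb in Nanog-/- ESCs. Contacts above 500 kb numbered 5, 2 and 2, and above 800 kb 0 in EpiSCs at either stricter setting. With a partner within 1 fragment, 51.1% of WT ESC contacts were found in EpiSCs and 66.4% in Nanog-/- ESCs (53.6% and 54.7% of all pairs), and at 10 reads or more 45.9% in Nanog-/- ESCs. Fewer contacts at stricter settings follow from their construction. Other causes were not tested. The settings for single groups of fragments and the 2-fold and 4-fold counts by fragment were chosen after seeing the data, as was scaling RPKM before the pseudocount. H2-Oa passed 2-fold in EpiSCs against WT ESCs with that scaling (1.09), without centring (1.78) and at a pseudocount of 0.1 (1.90). In Nanog-/- ESCs against EpiSCs, H2-D1 was inside 2-fold with that scaling (-0.99) and at a pseudocount of 0.1 (-0.98), Trim40 with that scaling (0.72) and without centring (0.44), and Zfp57 without centring (0.66).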
